A study of Rattus norvegicus with 27 samples.

Results

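The 8 genes described here carry glucocorticoid and corticotropin-releasing hormone (CRH) signals in the brain. They are the rows of the count table whose rat symbol was Nr3c1 (NCBI gene 24413), Nr3c2 (25672), Fkbp5 (361810), Sgk1 (29517), Tsc22d3 (83514), Hsd11b1 (25116), Crhr1 (58959) or Crhbp (29625), so 8 of 36865 rows, or of 28157 rows with a symbol. All 8 had 1 row each and reads in every library. RNA came from the medial prefrontal cortex (mPFC, with infralimbic, prelimbic and anterior cingulate areas) of 27 adult male Wistar rats, 1 library per rat. All rats had passed through a battery of anxiety tests and were killed from the home cage at rest, so they form 1 group with no untreated control, and neither their anxiety scores nor their plasma corticosterone were analysed here. The male Wistar rats of the trait anxiety experiment came from a pair of cohorts, and the cohort of a library is not in its label, so cohort could not be used in the tests. The sample labels list learned helplessness as the treatment, whereas the study describes the elevated plus-maze, light-dark and open field tests. What could be asked was therefore how high each gene was, how far it varied between rats, and whether the receptor target genes moved together.

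Corticosterone, the main glucocorticoid of the rat, binds the mineralocorticoid receptor (Nr3c2) with high affinity and the glucocorticoid receptor (Nr3c1) with lower affinity, so the latter is filled mainly at the daily peak and under stress. Bound receptors enter the nucleus and raise genes such as Fkbp5, which codes for a cochaperone that lowers the affinity of the receptor for its hormone, Sgk1, a kinase that acts on ion channels and transporters, and Tsc22d3 (also called GILZ), a leucine zipper protein that dampens inflammatory transcription. Hsd11b1 regenerates active corticosterone from its inactive form inside cells. CRH, the peptide that starts the hormonal stress response in the hypothalamus, also acts within the cortex through the receptor Crhr1, and Crhbp binds and sequesters it.

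Promoter windows of the 3 receptor target genes are shown first, so that their letters can be read beside the question whether they move together. Sequences were taken from the RefSeq table of the assembly GRCr8 and cover 250 bases before to 50 after an annotated start. The table held 33469 windows in all, among them 12 windows for 6 of the 8 genes, with Nr3c2 and Hsd11b1 not among them. For Sgk1 and Tsc22d3, which had 3 windows each, the window with the most marked letters is given. Capitals mark TGACG (the core of a cyclic AMP response element), GGGCGG (a GC box), CCAAT and TATAAA on either strand, and any base under 1 of these motifs is a capital. The windows were Sgk1 at chr1:24804782-24805081, Tsc22d3 at chrX:109009985-109010284 and Fkbp5 at chr20:6543506-6543805, all on the minus strand.
Sgk1: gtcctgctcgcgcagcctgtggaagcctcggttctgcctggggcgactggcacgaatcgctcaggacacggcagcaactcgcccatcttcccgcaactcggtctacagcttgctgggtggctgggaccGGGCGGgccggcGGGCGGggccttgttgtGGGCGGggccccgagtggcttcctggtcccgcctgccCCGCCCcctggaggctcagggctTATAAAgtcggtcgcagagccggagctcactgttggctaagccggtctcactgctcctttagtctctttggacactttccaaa
Tsc22d3: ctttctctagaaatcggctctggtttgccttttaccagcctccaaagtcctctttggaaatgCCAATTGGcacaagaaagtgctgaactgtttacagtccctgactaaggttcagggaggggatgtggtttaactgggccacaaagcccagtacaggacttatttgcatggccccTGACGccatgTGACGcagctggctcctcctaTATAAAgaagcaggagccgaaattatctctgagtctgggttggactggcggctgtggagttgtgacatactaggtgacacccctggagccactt
Fkbp5: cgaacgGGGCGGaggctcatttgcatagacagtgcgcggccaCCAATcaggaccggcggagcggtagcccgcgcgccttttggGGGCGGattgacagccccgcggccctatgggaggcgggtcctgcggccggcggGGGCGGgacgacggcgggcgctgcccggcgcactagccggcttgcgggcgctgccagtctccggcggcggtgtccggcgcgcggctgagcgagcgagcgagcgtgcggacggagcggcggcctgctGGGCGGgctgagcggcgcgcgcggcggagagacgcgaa
The Sgk1 window held 4 GC boxes and 1 TATAAA, the Tsc22d3 window held 2 TGACG, 2 CCAAT and 1 TATAAA, and the Fkbp5 window held 4 GC boxes and 1 CCAAT. Of all windows, 21.2% held a TGACG, 33.1% a GC box, 37.5% a CCAAT and 14.2% a TATAAA. None of the 12 windows held TGTTCT, the hexamer that each partner of a receptor dimer binds, on either strand, which 20.7% of all windows held. Nor did any hold 2 such hexamers facing each other across 3 bases with up to 2 mismatches in their 12 bases, which 1.87% held. Among the windows of other glucocorticoid-induced genes, that paired site with 2 mismatches was found in Fam107a (TGGACAtggTGTTCT, chr15:19046331-19046630, plus strand) and Sult1a1 (AGAACAgccAGTCCT, chr1:190706063-190706362, minus strand), with the 2 hexamers in capitals. These matches describe the letters of the windows only.

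Reads counted on genes ran from 4907255 to 12771309 per library, with a median of 8168801. The number in the library name split these totals without overlap. The 16 libraries numbered up to 31 had at most 8568317 and the 11 from 32 at least 9404220, so relations between members and with a followed score are also given within these sets, whose origin (preparation or cohort, for example) the labels do not give. Library 3 stood apart, with the highest oligodendrocyte marker score (2.22, next 1.28) and the lowest excitatory neuron marker score (−1.82, next −0.87), where a score is the mean z score of a marker list. Results that rest on library 3 are given with and without it, except spread, which was not computed without it. In RNA from a tissue piece, fewer cells of a type and less RNA per cell cannot be told apart.

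Levels are normalized read counts, namely counts divided by median-of-ratios size factors. They are not per transcript length, so they are compared between libraries and not between genes. Nr3c1, the glucocorticoid receptor, ran from 784 (library 26) over a median of 988 to 1190.4 (library 20), with a mean of 993 ± 115 (SD, n = 27). Nr3c2, the mineralocorticoid receptor, ran from 362 (library 3) over 469 to 613 (library 24), with a mean of 478 ± 56.4. Both receptors were expressed in every piece and differed less than 2-fold between the extreme rats, and 2 libraries, 3 and 18, lay lowest for Nr3c2 at 362 and 371.

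Among the receptor targets, Fkbp5 was the steadiest, from 428 (library 39) over a median of 524 to 619 (library 19), with a mean of 524 ± 48.9. Sgk1 was the most variable, from 412 (library 34) over 570 to 1020.0 (library 3), with a mean of 605 ± 132. Tsc22d3 ran from 642 (library 35) over 831 to 1260.1 (library 3), with a mean of 853 ± 126. Library 3 was the highest for both Sgk1 and Tsc22d3, and the next highest values were 770 (library 24) and 1028 (library 19), respectively.

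Hsd11b1, the enzyme that reactivates corticosterone, ran from 221 (library 52) over a median of 319 to 508 (library 3), with a mean of 325 ± 59.4. Crhr1, the CRH receptor, ran from 157 (library 20) over 205 to 260 (library 51), with a mean of 200.2 ± 27.5. Crhbp, the CRH binding protein, ran from 205 (library 26) over 266 to 344 (library 34), with a mean of 269 ± 36.1. Library 3 was at an end of the range for 4 of the 8 genes, and libraries 20, 26 and 34 were at an end for 2 genes each.

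**Figure D1:**
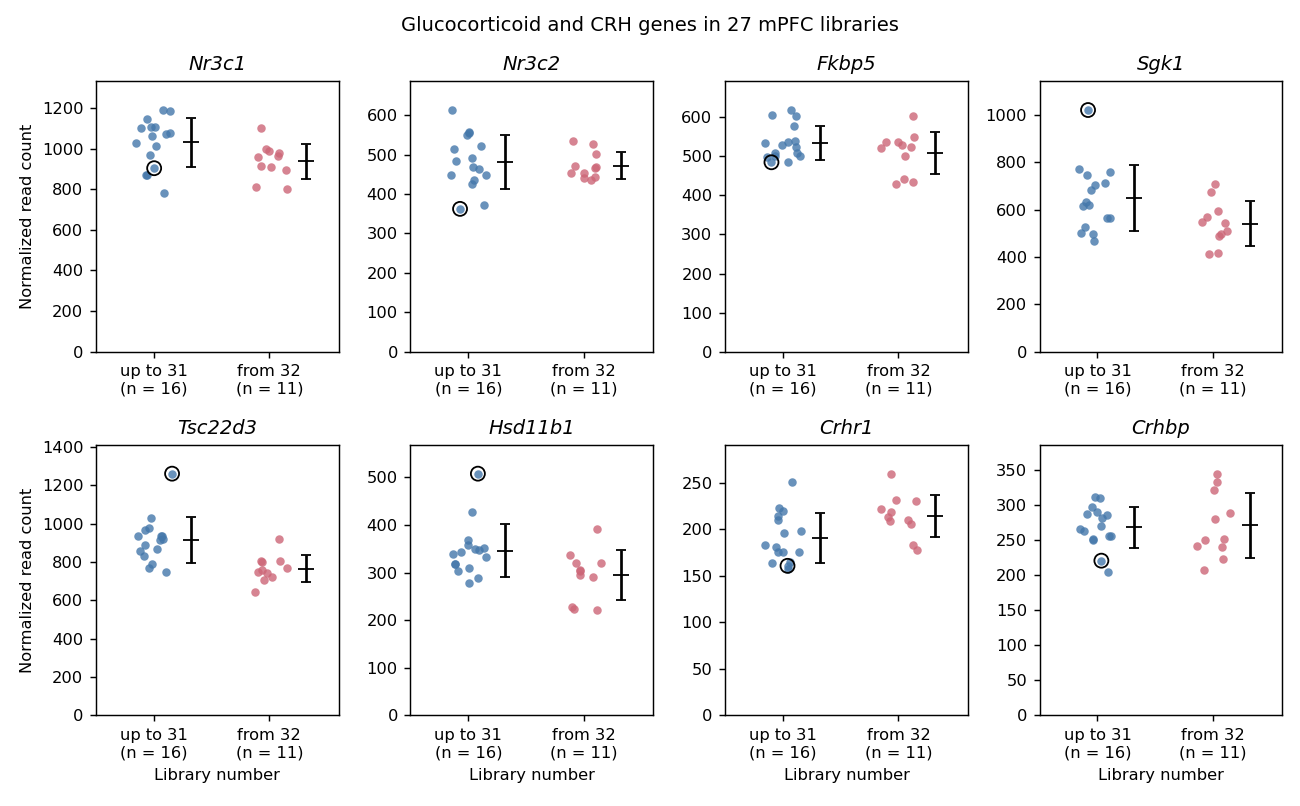
Normalized read count (y axis, starting at 0) of each of the 8 genes in the 16 libraries numbered up to 31 (blue) and the 11 from 32 (red), 1 point per library. Black marks are the mean with 1 SD, and library 3 is circled, at the top for Sgk1, Tsc22d3 and Hsd11b1 and at the bottom for Nr3c2.

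All 8 genes varied between rats by more than counting noise (chi-square dispersion test, Benjamini-Hochberg over all genes), but so did 90% of the 11730 genes that averaged 10 or more counts, so this is not particular to them. The SD of the log2 values was 0.14 for Fkbp5, 0.17 for Nr3c1 and Nr3c2, 0.19 for Crhbp, 0.20 for Crhr1 and Tsc22d3, 0.26 for Hsd11b1 and 0.30 for Sgk1, against a median of 0.19 over those genes. Counting alone made up 3.55% of the variance of Sgk1 and 27.3% of that of Crhr1. Against genes within 2-fold of its own mean, the biological coefficient of variation of Sgk1 was higher than that of 93.9% of 4013 genes, that of Hsd11b1 than 84.3% and that of Tsc22d3 than 81.5%. That of Fkbp5 was higher than only 40.6%, so only Sgk1, Hsd11b1 and Tsc22d3 lay far above the middle of the genes of their level. Library 3 was the highest for each of these genes, and how much of their spread rests on it was not tested. The receptors had 69.3% for Nr3c1 and 61.5% for Nr3c2, as did Crhbp with 65.6% and Crhr1 with 58.4%.

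Of the 8 genes, 1, Tsc22d3, differed between the 2 library sets (edgeR quasi-likelihood test, adjusted p over all genes tested), against 18% of the 11716 genes tested. Tsc22d3 was 914 ± 121 (n = 16, from 749 over 917 to 1260.1) in libraries up to 31 and 764 ± 70.8 (n = 11, from 642 over 756 to 920) in those from 32, so the sets overlapped. The difference on the log2 scale was −0.26 ± 0.06 (SE, adjusted p 0.00478), and it stood at an adjusted p of 0.00362 without library 3. Hsd11b1 (346 ± 55.7 and 294 ± 52.4, adjusted p 0.0622, and 0.0467 by DESeq2), Sgk1 (648 ± 139 and 541 ± 93.4, adjusted p 0.0817) and Crhr1 (190.5 ± 26.7 and 214 ± 22.7, adjusted p 0.0886) did not pass by edgeR. Depth differed between the sets as well, so set and depth cannot be told apart.

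Of the 3 receptor targets, 2 moved together. Sgk1 and Tsc22d3 rose and fell together across rats, whereas Fkbp5 was not shown to follow either. Between Sgk1 and Tsc22d3, Spearman's rho was 0.71 (p 6e-05) and Pearson's r was 0.76 (p 2e-05, n = 27, two-sided permutation tests of 100000 permutations, which can give no p below 1e-05). The relation was present in both library sets, with a rho of 0.62 (p 0.0129, permutation, n = 16) up to 31 and 0.85 (p 0.0017, permutation, n = 11) from 32. Without libraries 3 and 34, the farthest from the median of Sgk1, r was 0.61. These are 1 of 28 pairs computed, and the 2 genes share library, depth and size factor in every point. Against the total count of a library, rho was −0.62 for Sgk1 (−0.73 up to 31 and −0.11 from 32), −0.65 for Tsc22d3 (−0.43 and 0.20) and −0.09 for Fkbp5 (0.06 and −0.03), and the part of depth in the pair was not tested.

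The same relation was tested among all genes by fitting each gene on the z score of 1 member with edgeR's quasi-likelihood test. Per SD of Sgk1, Tsc22d3 rose by 0.15 ± 0.03 on the log2 scale (SE, adjusted p 0.000379), 1 of the 15.9% of 12026 genes that followed Sgk1. Per SD of Tsc22d3, Sgk1 rose by 0.23 ± 0.04 (adjusted p 6.58e-05), and 26.5% of 12107 genes followed Tsc22d3. A following gene was thus common for either, and 10.5% of genes had a larger slope on Sgk1 than Tsc22d3 did. Among 9845 other genes that averaged 50 or more normalized counts, Tsc22d3 stood 15th by its rho to Sgk1, while Sgk1 stood 110th by its rho to Tsc22d3. Without library 3, Sgk1 and Tsc22d3 still followed each other (adjusted p 0.00342 and 0.0198), although the number of genes that followed Sgk1 dropped from 1917 to 256. With the excitatory neuron score as a further term, Sgk1 still followed Tsc22d3 (adjusted p 0.0048) but Tsc22d3 did not pass in the fit on Sgk1 (0.13 per SD, adjusted p 0.236), where 2 genes were called in all.

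Fkbp5 gave a rho of 0.32 to Sgk1 (p 0.105, r 0.34, p 0.0805, permutation) and of 0.19 to Tsc22d3 (p 0.337, r 0.32, p 0.108, permutation), and both were 0.28 or lower within the libraries up to 31 and 0.19 or lower within those from 32 by rho. The fit on Fkbp5 called 0.368% of 11963 genes, 44 in all and each upward, and none of the other 7 members. Per SD of Fkbp5, Sgk1 differed by 0.10 ± 0.05 and Tsc22d3 by 0.06 ± 0.04 on the log2 scale, both with an adjusted p of 0.99965. Without the 2 libraries farthest from the median of Fkbp5, 35 and 39, r was 0.24 and 0.11. Leaving out library 3 raised r to 0.51 for Sgk1 (rho 0.44, p 0.0268, permutation) and to 0.50 for Tsc22d3 (rho 0.29, p 0.147, permutation), and Fkbp5 then passed in the fit on Tsc22d3 (0.07 ± 0.02 per SD, adjusted p 0.0444) but not in the fit on Sgk1 (adjusted p 0.145). The call for Fkbp5 on Tsc22d3 thus depended on 1 rat. The slopes of members on Fkbp5, Sgk1 or Tsc22d3 were not shown to differ between the library sets, since 0 of 21 interaction terms passed (lowest adjusted p 0.283), while 675 genes passed for Sgk1 and 0 for Fkbp5 and Tsc22d3, where 390 and 1381 genes had an unadjusted p under 0.05.

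**Figure D2:**
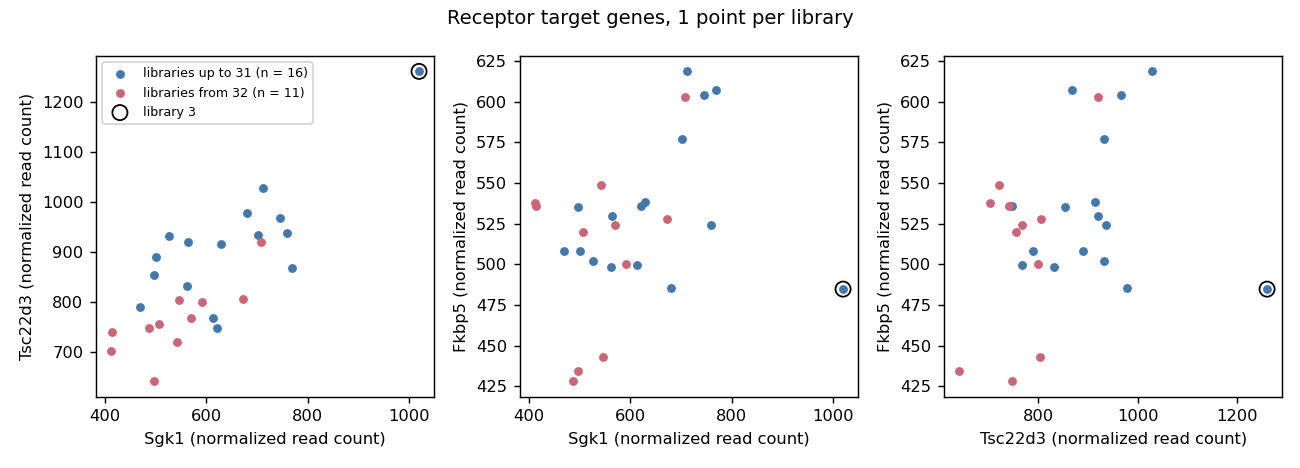
Normalized read counts of Tsc22d3 against Sgk1, Fkbp5 against Sgk1 and Fkbp5 against Tsc22d3, 1 point per library, blue for libraries up to 31, red for those from 32 and circled for library 3. Sgk1 and Tsc22d3 rise together in both colors (rho 0.71 over 27 libraries), whereas Fkbp5 forms a loose cloud against either (rho 0.32 and 0.19).

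In the fits with 1 covariate, neither receptor was shown to move with the targets. For Nr3c2, r was −0.31 to Sgk1 and −0.41 to Tsc22d3 in libraries up to 31 (p 0.239 and 0.11, permutation). From 32 it was 0.63 and 0.66 (p 0.0379 and 0.0256, permutation), with a rho of 0.45 and 0.49 (p 0.161 and 0.129, permutation). The slopes of Nr3c2 on Sgk1 and Tsc22d3 were not shown to differ between the sets (edgeR interaction test, adjusted p 0.283 and 0.396). Nr3c1, whose fit called 23% of 11920 genes, did not pass for Fkbp5 (adjusted p 0.667), Sgk1 (0.866) or Tsc22d3 (0.362). Tsc22d3 did pass in the fit on Nr3c1 with the excitatory neuron score as a term (0.09 ± 0.03 per SD, adjusted p 0.0229). The rho of Nr3c1 and Tsc22d3 was 0.30 (p 0.121, r 0.25, p 0.209, permutation), 0.56 with that score regressed out (p 0.00282, permutation), 0.39 without library 3 (p 0.0494, permutation) and 0.01 with the library set regressed out, and it was −0.09 and 0.11 within the sets. The member that rose with it was Hsd11b1, by 0.13 ± 0.04 per SD of Nr3c1 (adjusted p 0.0248), with a rho of 0.66 (p 0.00028) and an r of 0.53 (p 0.00361, permutation) and a rho of 0.61 and 0.63 within the sets. In the reverse fit on Hsd11b1, which called 13.6% of 12026 genes (2.23% without library 3 and 0.915% with the library set as a term), Nr3c1 rose by 0.10 per SD (adjusted p 0.0215) and Tsc22d3 by 0.11 (adjusted p 0.0345). The pair of Nr3c1 and Hsd11b1 grew tighter without library 3 (r 0.72, adjusted p 0.000621 for Hsd11b1), but Hsd11b1 did not pass in the fit on Nr3c1 once the library set (0.10 per SD, adjusted p 0.106) or the oligodendrocyte score (0.11, adjusted p 0.0529) was a further term, or without libraries 12 and 20 (0.13, adjusted p 0.0702). By rho the pair stood at 0.52 with the library set regressed out (p 0.00577, permutation) and at 0.64 without libraries 12 and 20 (p 0.00092, permutation). Without libraries 26 and 51, the farthest from the median of Nr3c1, r was 0.42. The pair of Hsd11b1 and Tsc22d3 did not pass for Hsd11b1 in the fit on Tsc22d3 without library 3 (0.05 per SD, adjusted p 0.456), with the library set as a term (0.07, adjusted p 0.37) or without libraries 12 and 20 (0.11, adjusted p 0.0622), and its rho was 0.27 up to 31 and −0.29 from 32.

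Nr3c2, Crhr1 and Crhbp were followed by no member in these fits. The edgeR fits on these 3 genes called 0% of 11963, 0% of 11920 and 0% of 11920 genes, although 1827, 2033 and 1036 genes had an unadjusted p under 0.05, and DESeq2 called 0, 72 and 2 genes, none of them a member. Nr3c2 lay closest to Fkbp5 (rho 0.37, p 0.0562, r 0.40, p 0.0384, permutation), with an adjusted p of 0.324 for Fkbp5 in the fit on Nr3c2, a rho of 0.44 and 0.41 within the sets and an r of 0.27 without libraries 3 and 24, the farthest from its median. Its rho passed with the excitatory neuron score regressed out (0.45, p 0.0193, permutation) and with TMM scaling (0.39, p 0.0474, permutation). Crhr1 lay opposite to Tsc22d3 (rho −0.48, p 0.0115, r −0.47, p 0.0124, permutation), with an adjusted p of 0.0562 for Crhr1 in the fit on Tsc22d3 by edgeR and 0.0436 by DESeq2, a rho of −0.26 with the library set regressed out (p 0.189, permutation), a rho of −0.21 and −0.40 within the sets and an r of −0.39 without libraries 3 and 35. Fkbp5 and Hsd11b1 had a rho of −0.43 (p 0.0249, r −0.32, p 0.0986, permutation), which was −0.53 and −0.51 within the sets, with an r of −0.26 without libraries 35 and 39, yet neither passed in the fit on the other (adjusted p 0.99965 and 0.328), and without library 3 the rho was −0.38 (p 0.0564, permutation). Crhr1 and Crhbp, the receptor and the binding protein of CRH, had no such relation (adjusted p 0.852 for Crhbp in the fit on Crhr1). Nr3c1 and Crhbp had a rho of 0.41 (p 0.0338, r 0.38, p 0.0496, permutation), 0.51 and 0.29 within the sets, with an adjusted p of 0.138 for Crhbp in the fit on Nr3c1 and an r of 0.32 without libraries 26 and 51. This rho did not pass without library 3 (0.37, p 0.0593, permutation), with the excitatory neuron score regressed out (0.30, p 0.126, permutation) or with total-count scaling (0.36, p 0.0671, permutation). Hsd11b1 and Crhr1 had a rho of −0.39 (p 0.0417, r −0.38, p 0.0476, permutation), −0.47 and 0.22 within the sets, with an adjusted p of 0.19 for Crhr1 in the fit on Hsd11b1, a rho of −0.33 without library 3 (p 0.105, permutation), −0.10 with the library set regressed out (p 0.6, permutation) and −0.34 with the excitatory neuron score regressed out (p 0.0837, permutation), and an r of −0.41 without libraries 3 and 52. The p-values of pairs are not adjusted for the 28 computed.

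**Figure D3:**
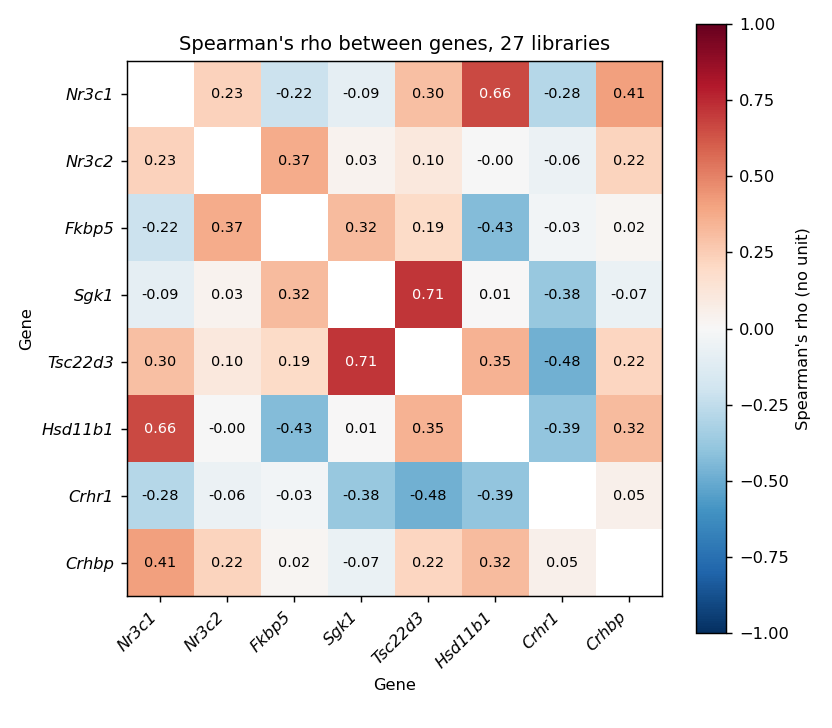
Spearman's rho of each of the 28 pairs of the 8 genes over 27 libraries, red for positive and blue for negative values. The highest is 0.71, between Sgk1 and Tsc22d3, followed by 0.66 between Nr3c1 and Hsd11b1.

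A wider list of 25 genes known to be raised by glucocorticoids was followed through the same fits, and 24 of them were matched to a row. Of its 20 genes tested on Sgk1, 9 rose and 0 fell with it, where 9.41% of all genes rose. The median slope of the 20 was 0.11 on the log2 scale per SD of Sgk1, against −0.002 over all genes. The largest was Nfkbia, the inhibitor that holds NF-kappaB in the cytoplasm, at 0.48 ± 0.05 (adjusted p 3.01e-07). It ran from 181 over a median of 296 to 976 normalized counts and was lower in libraries from 32 (−0.79 ± 0.16, adjusted p 0.000733). Next came the metal-binding protein gene Mt1 with 0.28 ± 0.06 (adjusted p 0.00119) and the transcription factor gene Cebpd with 0.22 ± 0.05 (adjusted p 0.00356). Cebpd was low, at 45.1 ± 10.7 normalized counts, as was Mt1 at 79.6 ± 27.7. The others that rose were Plekhf1, Angptl4, Tsc22d3, Ddit4, Slc2a1 and Arrdc2, with slopes from 0.09 to 0.19. The list was not uniform, since Per1, Zbtb16 and Cdkn1a had slopes of −0.01, −0.07 and −0.03 and did not pass. Without library 3, 4 of the 20 rose with Sgk1 beside 2.02% of all genes, with the library set as a term 9 beside 4.86%, and with the excitatory neuron score as a term 2 beside 0.0164%, while the median slope stayed at 0.11, 0.13 and 0.12.

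On Tsc22d3, 4 of the 20 glucocorticoid-induced genes rose and 0 fell, where 14.2% of all genes rose. They were Nfkbia (0.41 ± 0.06, adjusted p 3.15e-05), Sgk1, Mt1 (0.20 ± 0.07, adjusted p 0.0224) and Ddit4 (0.12 ± 0.03, adjusted p 0.00181), and 7 of 20 rose when the library set was a term, beside 7.11% of all genes. All 4 except Sgk1 itself are also among the genes that rose with Sgk1. Because Sgk1 and Tsc22d3 had a rho of 0.71 in the same libraries, this overlap is no separate support. On Fkbp5, 2 of 20 rose beside 0.368% of all genes, namely Sult1a1, a sulfotransferase gene (0.34 ± 0.07, adjusted p 0.0229), and Errfi1, a feedback inhibitor of the EGF receptor (0.11 ± 0.03, adjusted p 0.0375). Sult1a1 ran from 71.5 over a median of 144 to 251 normalized counts. Neither passed in the fits on Sgk1 or Tsc22d3, and this difference between fits was not tested. The median slope on Fkbp5 was 0.06, against −0.002 over all genes.

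**Figure D4:**
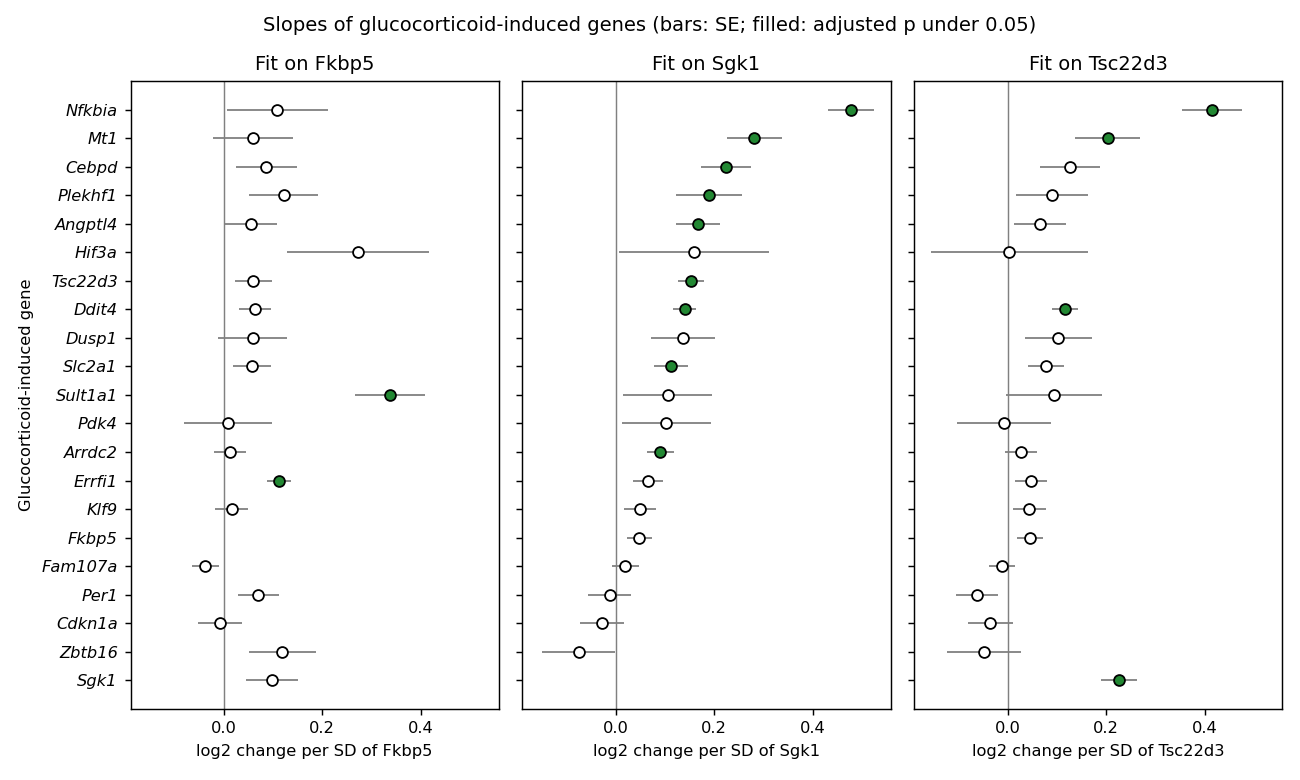
Slope (log2 change per SD of the fitted gene, x axis) of each tested glucocorticoid-induced gene in the fits on Fkbp5, Sgk1 and Tsc22d3, with its SE as a bar and filled points for an adjusted p under 0.05. In the fit on Sgk1 9 genes are filled and on the right of 0, in that on Tsc22d3 4, and in that on Fkbp5 2.

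With the receptor gene Nr3c1 itself, 0 of 21 glucocorticoid-induced genes rose and 1 fell, namely Mt1 (−0.21 ± 0.07, adjusted p 0.0374). With Hsd11b1, 3 rose (Nfkbia, Tsc22d3 and Fam107a) and the clock gene Per1 fell (−0.14 ± 0.03, adjusted p 0.00819), where 8.32% of all genes rose and 5.26% fell, but without library 3 the counts for Hsd11b1 were 0 and 1, and with the library set as a term 0 and 0. Of the 12 genes of the chaperone complex that folds and holds the receptor, 3 rose with Nr3c1, namely Dnaja1 (0.09 ± 0.02, adjusted p 0.00241), Ppid (0.09 ± 0.02, adjusted p 0.00818) and Hsp90ab1 (0.06 ± 0.02, adjusted p 0.0118), and 0 fell, where 13.2% of all genes rose and 9.8% fell. With Tsc22d3 4 rose, namely Bag1, Dnaja1, Fkbp4 and Hsp90ab1, where 14.2% of all genes rose, with Hsd11b1 1 (Fkbp4), with Sgk1 1 (Bag1) and with Fkbp5 0 of 11. These genes also differed between the library sets, where 5 of the 12 were lower from 32 beside 9.18% of all genes, among them Dnaja1 (−0.19 ± 0.04, adjusted p 0.000925) and Fkbp4 (−0.15 ± 0.03, adjusted p 0.00155).

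Among the receptor coregulators, Smarca4, the motor subunit of a chromatin remodelling complex, fell with Nr3c1 (−0.08 ± 0.01, adjusted p 0.00016), the coactivator gene Ncoa1 with Sgk1 (−0.07 ± 0.02, adjusted p 0.0121) and Tsc22d3 (−0.08 ± 0.02, adjusted p 0.00112), and the Mediator subunit gene Med1 with Tsc22d3 (−0.12 ± 0.04, adjusted p 0.0483), where 6.53% of all genes fell with Sgk1 and 12.3% with Tsc22d3, while none of the 8 tested rose with any member. No chaperone gene passed in the fit on Hsd11b1 without library 3. Of the 7 genes of corticosteroid metabolism and transport tested on Tsc22d3, H6pd, which supplies the cofactor of Hsd11b1, fell with it (−0.17 ± 0.06, adjusted p 0.0236) and Hsd11b1 rose (0.11 ± 0.04, adjusted p 0.0414). Neither passed without library 3, nor did Bag1 and Ncoa1 in the fit on Sgk1. The enzyme that inactivates corticosterone, Hsd11b2, was near its floor with 0 to 8 reads and was not tested.

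In the CRH family, Crh itself was present at 57.0 ± 14 normalized counts (29 to 99 reads per library), and Crhr2, the other receptor, at 14.6 ± 5.55. The urocortin genes Ucn and Ucn2 were at the limit of detection, with at most 5 and 3 reads. Ucn3 had 0 in all 27 libraries, as did Sst, Ep300 and Ncoa3, and whether its row could take reads was not tested. If a row was counted, a 0 allows up to 3 reads per library, or 6.11e-05% of the shallowest. Of the 4 family members tested in each of the fits on the 6 members outside the family, and of the 3 in those on Crhr1 and Crhbp, 0 passed. Of all genes, the fits called 26.5% (Tsc22d3), 23% (Nr3c1), 15.9% (Sgk1), 13.6% (Hsd11b1), 0.368% (Fkbp5) and 0% (Nr3c2, Crhr1 and Crhbp). Where a fit called no gene, no other count was possible.

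Levels of 4 members moved with marker scores in the fits with 1 covariate. Sgk1 and Tsc22d3 fell with the excitatory neuron score (Slc17a7, Camk2a and 8 others), with slopes of −0.19 ± 0.04 and −0.12 ± 0.03 on the log2 scale per SD (SE, adjusted p 0.000451 and 0.00287), a score that 32.7% of 12209 genes followed. The fall was seen in the libraries up to 31, with a rho of −0.71 for Sgk1 and −0.61 for Tsc22d3, and not in those from 32, with a rho of 0.05 and 0.33, and this difference was not tested. Sgk1 also fell with the interneuron score (−0.16 ± 0.04, adjusted p 0.0155), which 17.5% of 12100 genes followed, with a rho of −0.33 and −0.26 within the sets. The summed level of the 10 excitatory markers ran from 13702 over a median of 22396 to 25110.3 normalized counts and that of the 9 interneuron markers, of which Sst was at 0 in every library, from 5487 over 6484 to 7408. Without library 3 neither Sgk1 (adjusted p 0.0655 and 0.509) nor Tsc22d3 (0.276 for the excitatory score) passed, and no gene passed for the interneuron score.

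Hsd11b1 rose with the astrocyte score (Gfap, Aqp4, Slc1a3 and 6 others) by 0.20 ± 0.03 per SD (adjusted p 0.000583), against 2.91% of 11955 genes called. It passed without library 3 (0.15 per SD, adjusted p 0.0105) and with the library set as a term (adjusted p 0.00247), and its rho was 0.58 and 0.50 within the sets. The summed level of the 9 astrocyte markers ran from 29370 over a median of 34715 to 45441. Fkbp5 rose with the meningeal fibroblast score (Dcn, Lum, Col1a1 and 5 others) by 0.08 ± 0.02 per SD (adjusted p 0.0394), against 2.55% of 11956 genes called. It passed without library 3 (adjusted p 0.048) but not without libraries 12 and 20, where the slope was 0.09 (adjusted p 0.0516), and its rho was 0.67 and 0.42 within the sets. The summed level of the 8 fibroblast markers ran from 363 over 1718 to 7122, so it differed more between pieces than any of the other summed lists named here. The part of these cell types in the relations between members, beyond the fits with a score as a term, was not tested.

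Nr3c2 had a slope of 0.08 per SD on the excitatory neuron score that did not pass in edgeR with TMM (adjusted p 0.0554) or without library 3 (0.03 per SD, adjusted p 0.488) but passed with DESeq2's size factors (0.0491), with the library set as a term (0.0334) and by DESeq2's test (0.0396). Crhr1 fell with the oligodendrocyte score when the library set was a term (−0.11 ± 0.03 per SD, adjusted p 0.0233). With 1 covariate, no member followed the oligodendrocyte score (1.51% of 12017 genes called), the microglia score (0.549% of 12018), the endothelial score (0.166% of 12019), the score of immediate early genes (0.042% of 11911) or that of clock output genes (0% of 11914, with 1681 genes at an unadjusted p under 0.05 and 29 called by DESeq2). The score of immediate early genes, which mark recent neuronal activity, had a rho to the 3 targets of 0.16 for Fkbp5, 0.18 for Sgk1 and −0.03 for Tsc22d3.

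**Figure D5:**
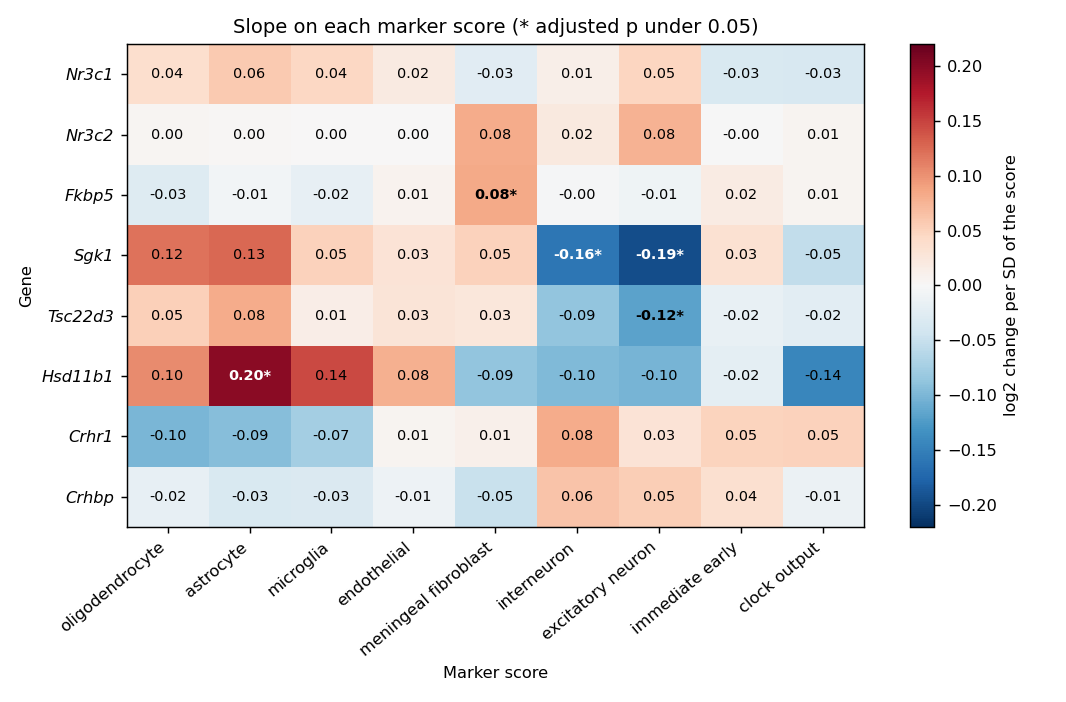
Slope of each of the 8 genes on 9 marker scores (log2 change per SD of the score), red for positive and blue for negative, with a star and bold type for an adjusted p under 0.05. The 5 starred cells are Sgk1 and Tsc22d3 on the excitatory neuron score, Sgk1 on the interneuron score, Hsd11b1 on the astrocyte score and Fkbp5 on the meningeal fibroblast score.

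The genes most like each member, by rho over 27 libraries among the 9845 candidates, are listed next. Tsc22d3 itself stood 15th by its rho to Sgk1, so such short lists can differ even between targets that move together. Nearest to Sgk1 were Nfkbia (0.83), Pdlim1, Pim3, Gpatch4 and Abhd5 (0.76), and Nfkbia kept a rho of 0.87 in both library sets. Nearest to Tsc22d3 were Slc25a5 (0.86), Gdi2, Ssr3, Mgat2 and Pcna (0.82), genes of mitochondria, vesicle traffic, the secretory pathway and replication. Nearest to Fkbp5 were Col1a2 (0.69), Sned1, Poglut3, Dcdc2 and Slc9a2 (0.65), of which Col1a2, a collagen gene, is itself in the fibroblast list.

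Nearest to Nr3c1 were Ptpn4 (0.92), Ssr1, the row of gene ID 103689950, Bpnt2 and Anks1b (0.90), the tightest neighbours of any member. Nearest to Hsd11b1 were Ptprz1 (0.83), a phosphatase gene of astrocytes and glial progenitors, Snx6, Msmo1, Tspan12 and Tmem229a (0.78). Nr3c2 had looser neighbours, with Bhlhe22 (0.67), Zfp157, Jam2, Cby1 and Thada (0.63), as did Crhr1 with Rai2 (0.76), Smyd5, Plxdc1, Bcas3 and Ebf4 (0.65), and Crhbp with C5h8orf34 (0.73), Pls3, Tmtc3, Npat and Cisd2 (0.67). Within the libraries from 32, the lowest values were those of Ebf4 (0.03), Plxdc1 (0.30) and Bcas3 (0.31) to Crhr1, Cby1 (0.28) to Nr3c2 and Mgat2 (0.39) to Tsc22d3. The neighbours of Nr3c1 ran there from 0.53 to 0.94.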

How the data were processed

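The authors deposited raw read counts per gene for 27 mPFC libraries, with no normalization. The submitters' processing notes name Trimmomatic, STAR and HTSeq, and the genome build and strand setting are not given in the sources used here. The paper's methods name a NEBNext kit and the labels a TruSeq kit. Symbols came from RefSeq's list of GRCr8 genes, matched to 28157 of 36865 rows. The 8 genes, the gene and marker lists, the library sets and the alternatives were chosen with earlier results of these data known. No deposited column was left out.

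Levels are counts divided by DESeq2 (1.42.0) median-of-ratios size factors, and logs were taken as log2(normalized count + 1), where the added 1 shrinks changes of low genes. Tests across genes used edgeR (4.0.16, R 4.3.3) quasi-likelihood fits after filterByExpr and TMM, with a Benjamini-Hochberg adjusted p under 0.05 over all genes tested. The covariate was the z score of 1 gene or the mean z score of a marker list (genes with a mean of at least 10), and genes in the covariate were not tested. As each library is 1 rat and GEO's labels give 1 group, p-values measure the spread between rats. Spread was tested against a Poisson distribution, which assumes independent reads. Pair correlations used 100000 permutations (Python 3.11.15, numpy 2.4.6). Alternatives were other scalings, no filter, DESeq2's Wald test, another pseudocount, libraries left out, and library set or a marker score as a further term. The runs without library 3 and with the excitatory neuron score were chosen after the data were seen. Named genes are the 8 genes, list genes called in a fit (the 3 largest slopes in each direction, the others by name or count), the 5 genes nearest to each member, and markers of a score that a member followed. Some list genes are not reported here. Genes with no call whose values are given were named after these were seen. On simulated counts for 11730 genes, the covariate fit recovered 60 of 100 genes with a slope of 0.15 per SD and 89 of 100 with 0.3, with 11 false calls. For the library sets (11693 genes), 47 of 100 differences of 0.25 were recovered, with 9 false calls, and for the interaction 30 of 100 differences of 0.25, with 3 false calls. The dispersion test recovered 196 of 200 overdispersed genes, with 16 false calls. Whether the recovery and false calls of the covariate fit hold where many genes move together, as for Sgk1 and Tsc22d3, was not tested.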

Additional observations from a re-analysis of the deposited data

How the results depend on the processing

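Of all 136 slopes of members, 12 passed. Over 976 values under an alternative, 22 no longer passed, 10 newly passed and 49 had the other sign, 0 of these among slopes that had passed. Of all 28 pairs, 6 passed by rho at an unadjusted p under 0.05. Over 196 values, 8 no longer passed, 8 newly passed and 21 had the other sign, 0 of these among pairs that had passed. All 8 members varied more than counting under every scaling and filter tried, and no SD of log2 values moved beyond its own error with another scaling or pseudocount. The filter cannot change an SD, and no SD was computed with a library left out. Tsc22d3 in the fit on Sgk1 no longer passed with the excitatory neuron score as a term (0.13 per SD), and Fkbp5 newly passed in the fit on Tsc22d3 without library 3 (0.071 per SD). The rho of Fkbp5 and Sgk1 newly passed without library 3 (0.44) and with total-count scaling (0.39). The number of genes called moved by over 1.5 times as follows, and the cause was not tested. Without library 3 it was 256 for Sgk1 (1917 with it), 1836 for Tsc22d3 (3209), 267 for Hsd11b1 (1634), 111 for the astrocyte score (348), 0 for the interneuron score (2114, and 0 also means that Sgk1 was lost) and 1408 for the excitatory neuron score (3987). Without libraries 12 and 20 it was 1716 for Nr3c1 (2737). With the library set as a term it was 1170 for Sgk1, 1807 for Tsc22d3, 110 for Hsd11b1, 397 for the oligodendrocyte score (182) and 191 for the astrocyte score. With the excitatory neuron score as a term it was 2 for Sgk1 and 1 for Nr3c2 (0), with the oligodendrocyte score 1012 for Hsd11b1, and with the endothelial score 1 for Crhr1 (0). With DESeq2's Wald test it was 92 for Fkbp5 (44), 72 for Crhr1, 2 for Crhbp (0), 550 for the astrocyte, 134 for the microglia (66), 36 for the endothelial (20) and 29 for the clock score (0). Without a filter it was 229 for the astrocyte and 1 for the clock score. The glucocorticoid-induced genes that rose were 1 with Fkbp5 under the oligodendrocyte term (2), 2 and 4 with Sgk1 under the excitatory neuron term and without library 3 (9), and 7 with Tsc22d3 under the library set term (4). The floor of 3 reads covers counting error only. Counts of Mt1, Hsp90ab1 and other genes with close copies are uncertain where reads could be split between copies. No paired analysis was possible because all libraries form 1 group.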

Other observations

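Some genes of the lists were listed at 0 in all 27 libraries. Among them were Ep300 and Ncoa3, coactivators of nuclear receptors that most cells use, while the related Crebbp and Ncoa1 stood at 876 ± 73.3 and 1205 ± 89.1 normalized counts (SD, n = 27). Ncoa2, of the same family as Ncoa1, ran from 33.6 over a median of 177 to 246. Galnt15, Plin4, Serpina6 and Ucn3 were at 0 as well, and the cause of these zeros was not tested. A count of 0 allows up to 3 reads per library.

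Cyp11b2, the last enzyme of aldosterone synthesis in the adrenal gland, stood at 85.8 ± 18.1 normalized counts in these cortex pieces, from 34 to 161 reads per library, while Star had 2 to 19 reads and Cyp11a1, the first enzyme of steroid synthesis, had 0 in 21 of 27 libraries and at most 2 in the others. Cyp11b1, the close relative of Cyp11b2, was not analysed here.

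Among members and scores that did not pass a test, Nr3c2 had a rho of 0.50 to the meningeal fibroblast score, beside 0.61 for Fkbp5, and Hsd11b1 had a rho of −0.47 to the clock output score. These are descriptions over 27 libraries, and the latter was −0.45 without library 3, −0.17 in libraries up to 31 and −0.73 in those from 32.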
